A study of Mus musculus with 2 samples.

Results

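Intergenic transcript models are read structures that the authors' program TALON placed outside every gene of the annotation it used. All models of that class outside chromosomes X and Y were taken from both libraries, 2850 of 99127 mouse models with reads in replicate 2 and 1644 of 65766 in replicate 1. Models on the same strand that shared at least 1 base were merged into loci. Of the 3807 loci formed, 640 had reads in both libraries, and these 640 shared loci are described here. Long-read RNA-seq had been run on adrenal glands of B6CASTF1/J females, hybrids of C57BL/6J and CAST/EiJ parents, aged 25 days. The labels give a single untreated group of 2 libraries, replicate 2 and replicate 1, and no other condition. Both library descriptions name animal 03, whereas the tissue descriptions name animal 04 for replicate 2 and animal 03 for replicate 1, so whether the libraries come from separate animals is not settled by the labels, and the spread between them may be technical.

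The RNA between annotated genes includes long non-coding RNAs that have not been catalogued, short unstable transcripts that leave active promoters in the opposite direction, transcripts of enhancers, RNA that continues past the end of a gene, and copies of processed genes and mobile elements. A read that covers a whole molecule shows its start, its splicing and its end at once, which a short read does not. In mice the adrenal cortex makes steroid hormones from cholesterol and the medulla makes catecholamines.

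Replicate 2 held 712032 reads assigned to genes of the annotation and replicate 1 held 397176, and levels are given as CPM, counts scaled to 1000000 of those reads. Intergenic models held 5849 reads in replicate 2 and 3459 in replicate 1, which was 0.774% of mouse reads in replicate 2 (95% Wilson interval 0.755 to 0.794%) and 0.829% in replicate 1 (0.802 to 0.857%). Intervals cover counting error alone, and the reads carry no molecular identifiers. The 6 cortex markers lay between 777 and 28040 CPM and the 5 medulla markers between 233 and 5335 CPM. No read fell on the kidney markers Umod, Kap and Slc12a1 in either library, which allows up to 4.21 CPM in replicate 2 and 7.55 CPM in replicate 1. The liver markers Alb, Apoa1 and Ttr had 1 read together in replicate 2 and 70 in replicate 1. The brown fat markers Ucp1 and Cidea lay between 279 and 536 CPM.

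Sequence could be shown where a locus began inside a RefSeq promoter window, which runs from 250 bases before to 50 bases after a gene's start on build GRCm38.p6. The 5′ ends of 72 of the 640 shared loci lay in such a window, with windows of genes on the opposite strand in 57 cases and on the same strand in 26 cases (a locus can have both). The windows on the opposite strand held a median of 25 CG dinucleotides and those on the same strand 15, against 7 over all 31396 windows outside X and Y and 14 over the 20085 of protein-coding genes. Many of these 5′ ends lay exactly on an annotated gene boundary, 55 of the 57 on the opposite strand and 13 of the 26 on the same strand, and whether reads began there was not analysed. For same-strand windows the median was 35 CG with the 5′ end on a boundary and 8 with it elsewhere. The 5 printed below are 4 in which a locus with many or spliced reads begins, and 1 that holds a whole locus. Each is given 5′ to 3′ on its gene's strand, capitals mark bases inside an exon of the intergenic models, and for protein-coding genes the bases from the gene's start onward are left out.
Gm40376 (chr12:32724478-32724777, plus strand, locus on the same strand): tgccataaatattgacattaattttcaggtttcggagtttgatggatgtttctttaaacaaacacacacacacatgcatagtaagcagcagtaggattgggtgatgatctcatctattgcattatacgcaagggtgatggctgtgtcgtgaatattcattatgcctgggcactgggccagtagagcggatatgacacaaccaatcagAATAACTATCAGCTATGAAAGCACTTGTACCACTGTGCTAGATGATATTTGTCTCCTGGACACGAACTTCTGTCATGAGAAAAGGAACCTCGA
Gm41062 (chr13:112100672-112100971, plus strand, locus on the same strand): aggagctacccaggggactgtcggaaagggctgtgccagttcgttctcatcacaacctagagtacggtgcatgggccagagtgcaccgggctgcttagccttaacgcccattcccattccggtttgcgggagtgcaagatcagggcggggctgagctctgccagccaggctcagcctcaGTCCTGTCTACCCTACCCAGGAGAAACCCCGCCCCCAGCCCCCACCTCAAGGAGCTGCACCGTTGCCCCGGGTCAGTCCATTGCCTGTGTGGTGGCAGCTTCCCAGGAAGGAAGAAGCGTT
Tbc1d22a (chr15:86214209-86214458, plus strand, locus on the opposite strand): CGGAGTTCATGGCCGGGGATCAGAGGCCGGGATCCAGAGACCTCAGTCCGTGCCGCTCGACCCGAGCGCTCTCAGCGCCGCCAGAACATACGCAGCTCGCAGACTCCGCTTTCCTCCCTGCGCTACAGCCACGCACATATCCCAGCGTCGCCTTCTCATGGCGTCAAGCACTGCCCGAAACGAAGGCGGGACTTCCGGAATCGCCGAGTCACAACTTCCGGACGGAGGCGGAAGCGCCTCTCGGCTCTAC
Med26 (chr8:72548311-72548560, minus strand, locus on the opposite strand): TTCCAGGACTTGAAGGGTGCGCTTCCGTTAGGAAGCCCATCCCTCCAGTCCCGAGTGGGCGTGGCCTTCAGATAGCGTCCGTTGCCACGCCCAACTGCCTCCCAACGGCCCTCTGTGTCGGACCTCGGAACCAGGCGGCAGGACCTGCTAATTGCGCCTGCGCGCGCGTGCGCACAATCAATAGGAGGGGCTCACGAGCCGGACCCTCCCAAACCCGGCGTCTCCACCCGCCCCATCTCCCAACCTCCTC
Akr1d1 (chr6:37529923-37530172, plus strand, locus on the opposite strand): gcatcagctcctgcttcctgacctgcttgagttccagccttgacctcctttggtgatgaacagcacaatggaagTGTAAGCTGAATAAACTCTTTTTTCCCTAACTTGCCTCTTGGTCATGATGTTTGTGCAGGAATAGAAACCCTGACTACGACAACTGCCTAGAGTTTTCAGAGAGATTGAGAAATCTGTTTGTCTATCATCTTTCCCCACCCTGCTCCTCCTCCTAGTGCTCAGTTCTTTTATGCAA
The loci at Gm40376 and Gm41062, both RefSeq lncRNA genes, began 43 and 71 bases upstream of the gene's start on its own strand. These are the outermost starts of either library. The Gm40376 locus began at base 32724702 in replicate 2 and 32724685 in replicate 1. For the Gm41062 locus the starts were 112100851 in replicate 2 and 112100921 in replicate 1. The Tbc1d22a locus, on the minus strand, began at the first base of Tbc1d22a in RefSeq, whose product belongs to a family of Rab GTPase regulators, and ran the other way through all 250 printed bases, which hold 29 CG dinucleotides. The Med26 window, next to a Mediator subunit gene, was likewise covered through all 250 printed bases, from a locus start 40 bases inside the gene. Those printed bases hold 22. The whole windows, to which the medians above refer, hold 33 at Tbc1d22a and 31 at Med26. The Akr1d1 locus, beside a steroid reductase gene, lies wholly in its window and covers 176 of the printed bases, which hold 1 CG. At least 50% of it also lies inside the RefSeq lncRNA gene Gm33429, on its own strand. The 5′ ends of the Tbc1d22a, Med26 and Akr1d1 loci lay on an annotated boundary and those at Gm40376 and Gm41062 did not. The Akr1d1 locus was chosen after its values were seen, as a shared locus that a printable window contains whole.

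Most intergenic loci rested on few reads, and a small set carried much of the signal. Of the 640 shared loci, 424 (66.3%) had a single read in at least 1 library and 215 (33.6%) had exactly 1 read in each. At least 5 reads in each library were found for 65 loci, at least 10 for 30 and at least 20 for 16. The 10 loci with most reads in each library held 28.1% of the shared reads in replicate 2 and 27.7% in replicate 1. The shared loci together held 3100 reads in replicate 2 (53.0% of its intergenic reads) and 2136 in replicate 1 (61.8%).

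The share of loci seen again rose with their reads. Of the loci with 1 read in replicate 2, 12.7% were read in replicate 1, and of those with 10 or more reads 91.2% (52 of 57) were. Of the loci with 1 read in replicate 1, 29.2% were read in replicate 2, and of those with 10 or more reads 92.3% (36 of 39) were. Annotated lincRNA genes, the nearest catalogued class, were found again in 22.7% and 100% of cases at the same read numbers in replicate 2 and in 56.8% and 100% in replicate 1. The share was lower for intergenic loci in each of the 8 classes of reads and library. These shares are descriptions, and the difference was not tested. A locus whose place was read in the other library under another class alone counted as not found. Of the 8 loci with at least 10 reads that were not found again, 7 shared a base with such a model on the same strand.

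**Figure D1:**
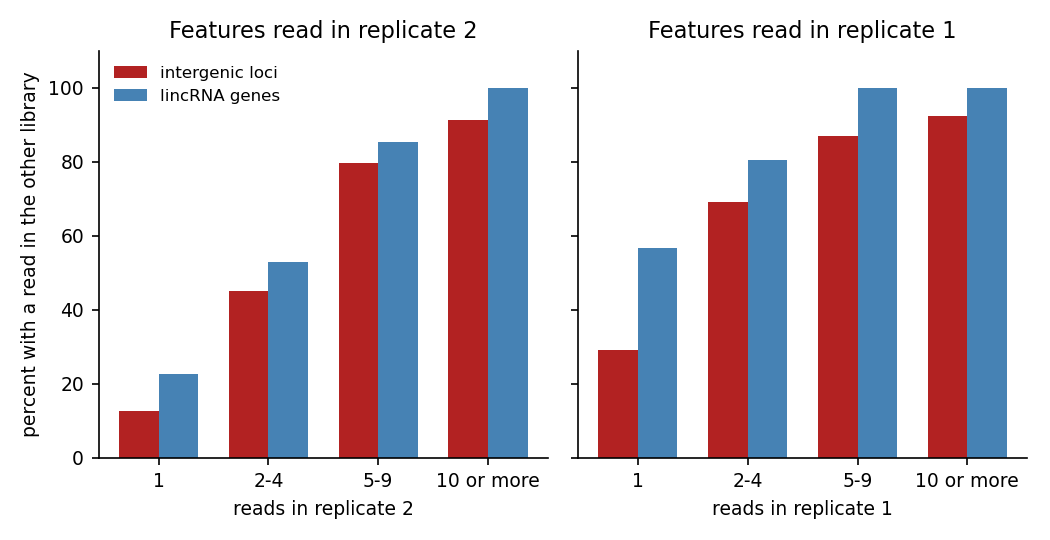
Percent of features with a read in the other library (y axis), by their reads in replicate 2 (left panel) or replicate 1 (right panel), for intergenic loci and annotated lincRNA genes. Loci with 10 or more reads were found again in 91.2% (replicate 2) and 92.3% (replicate 1) of cases.

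The 15 shared loci with the highest smaller count lay between 28.1 and 350 CPM in both libraries, and most had 1 exon and no annotated gene within 1000 bases. A long read is counted once whatever its length, so counts were not divided by length. The locus chr7:34182903-34183116 on the minus strand had 93 reads in replicate 2 and 69 in replicate 1, or 131 CPM in replicate 2 and 174 CPM in replicate 1. It lies 1382 bases downstream of Pdcd2l on the same strand, a gene named for its likeness to a programmed cell death protein, which had 34 reads in replicate 2 and 24 in replicate 1. The locus chr15:103619122-103619240 on the plus strand had 126 reads in replicate 2 and 61 in replicate 1, and its models measured 118 bases in both libraries. Its nearest annotated gene, the lincRNA gene Gm49272, is 30551 bases away and had no read in either library. The locus chr11:86811826-86816129 on the minus strand had 116 reads in replicate 2 and 56 in replicate 1, in models of up to 2176 bases in replicate 2 and 4303 in replicate 1, and lies 4079 bases upstream of the helicase gene Dhx40, which had 11 reads in each library. These 3 loci were read more often than their nearest annotated gene in both libraries.

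Several of the highest loci were nearly the same short length. The locus chr7:126099723-126099894 on the plus strand had 85 reads in replicate 2 and 46 in replicate 1 and measured 172 bases in both. It faces Xpo6, an exportin gene, whose end is 1820 bases away. The locus chr2:50017463-50017641 on the minus strand, 48787 bases from Lypd6, had 87 reads in a model of 179 bases in replicate 2 and 45 in a model of 177 bases in replicate 1. The loci chr17:74140819-74140999 (plus strand) and chr7:126643198-126643377 (minus strand) had the same count of 80 reads in replicate 2, and 44 and 39 reads in replicate 1, with lengths of 179 to 181 bases. None of these 4 loci passed the test between the libraries, with log2 ratios of replicate 2 over replicate 1 from 0.01 to 0.19 and adjusted p from 0.942 to 1 (exact binomial test, Benjamini-Hochberg over all features).

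The other loci of this group were longer or lay against a gene. The locus chr19:4060334-4066102 on the minus strand, 764 bases upstream of the glutathione S-transferase gene Gstp3, had 61 reads in replicate 2 and 33 in replicate 1, of which 1 was spliced, whereas Gstp3 itself had none. The locus chr11:100457022-100461670 on the plus strand had 77 reads in replicate 2 and 26 in replicate 1 and shares its first base with the last base of Klhl10, a gene of the kelch-like family that had 1 read in replicate 2 and none in replicate 1. The locus chr15:86212657-86214459, which begins at Tbc1d22a and ends at the snRNA gene Gm22818, had 46 reads in replicate 2 and 22 in replicate 1, in 1 model of 1803 bases in each library. The locus chr2:75638369-75642874 on the plus strand had 25 reads in replicate 2, in a model of 4505 bases, and 30 in replicate 1, in a model of 4506 bases. A locus on an unplaced scaffold with no annotated gene had 55 reads in replicate 2, in a model of 541 bases, and 20 in replicate 1, in a model of 110 bases. The locus chr4:126983603-126984220, against the pseudogene Gm12939, had 20 reads in replicate 2 and 22 in replicate 1. The remaining 2 of the 15, near Fgfr4 and Gm13502, differed between the libraries and are described with the test.

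Long loci with at least 3 reads in each library mostly had 1 exon. By bases covered by exons, the longest of them after the Gstp3 locus (5769 bases) was chr7:28256138-28261405 on the minus strand, with 5268 bases, 20 reads in replicate 2 and 22 in replicate 1, divergent from Eid2 at 6475 bases. Covered bases join all models of a locus. The longest single model was 4602 bases in replicate 2 and 3176 in replicate 1 at Gstp3. Near Eid2 it was 5047 bases in replicate 2 and 4484 in replicate 1. The locus chr15:82362912-82367882 on the plus strand had 4971 covered bases, 10 reads in replicate 2 and 7 in replicate 1. Its longest models were 2966 bases in replicate 2 and 2721 in replicate 1. It converges with the cytochrome P450 gene Cyp2d22 2644 bases away. The locus chr5:135624013-135628891 on the plus strand, upstream of Rhbdd2, a gene of the rhomboid family, had 5 reads in each library in models of 4879 bases in replicate 2 and 4878 in replicate 1. The locus chr4:145568804-145573616, 911 bases from the pseudogene Gm13228, had 5 reads in replicate 2 and 8 in replicate 1. Another 7 shared loci with fewer than 3 reads in a library covered between 5352 and 6089 bases. The most exons among loci with at least 3 reads in each library were at chr17:87040459-87050653 on the minus strand, with 3 reads in 1 model of 5 exons in replicate 2 and 3 reads in a model of 1 exon in replicate 1; the other 3 loci with 5 exons had fewer reads.

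**Figure D2:**
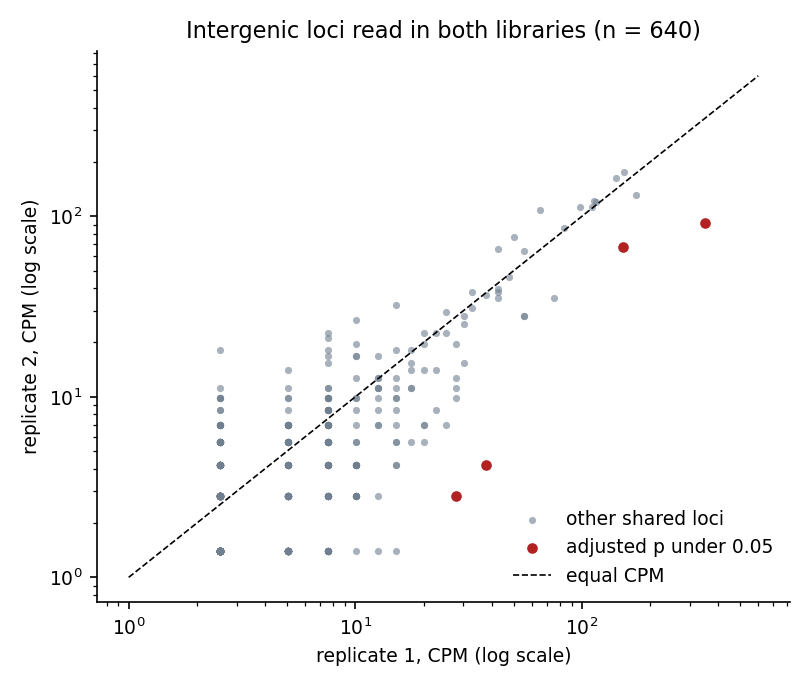
Level of each shared locus in replicate 1 (x axis) and replicate 2 (y axis) in CPM on log scales; each point is 1 of 640 loci, and red points passed the test between the libraries. All 4 red points lie below the line of equal level, on the side of replicate 1, and the steps at low levels are single reads.

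Lengths of one-exon intergenic models had a narrow peak. The most common length was 177 bases, with 104 of 4031 models, followed by 176 bases with 99. Around it, the run of lengths that each held at least 25% as many models as the peak went from 169 to 180 bases, a definition set after seeing the distribution. It held 17.9% of one-exon intergenic models in replicate 2 and 18.5% in replicate 1. In the other classes with one-exon models the same window held from 3.12% to 3.93% of antisense models and of genomic models (overlapping a gene on its strand without matching its introns) in either library, 1.40% (replicate 2) and 1.96% (replicate 1) of incomplete splice matches and 0.322% (replicate 2) and 0.420% (replicate 1) of annotated transcripts. In replicate 2, 41.8% of one-exon intergenic models were under 200 bases, against 18.2% of antisense models, and in replicate 1 45.7% were, against 21.2%.

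Among the shared loci, 101 (15.8%) had one-exon models of 169 to 180 bases in both libraries, with 18.3% of the shared reads in replicate 2 and 16.2% in replicate 1. Their median distance to a gene was 6655 bases, against 1705 for the other one-exon loci, a difference that was not tested. Of the 101, 1 (0.990%) shared a base with a gene, against 124 of 428 (29.0%) other one-exon loci. Both sets were split by model length, and an end on a gene boundary can bear on that length. The loci that share a base also enter the median of 1705 bases, so neither contrast is independent of the split. No strand relation to the nearest gene held most of the 101, with 21 downstream on the same strand, 29 upstream on the same strand, 27 divergent and 23 convergent. Of the 17 with at least 10 reads in all, none passed the exact binomial test between the libraries at an adjusted p of 0.05 (2.25% of all features did) and 0 at an unadjusted p of 0.05 (11.6% of all features), and their log2 ratios of replicate 2 over replicate 1 ran from -0.84 to 1.39.

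**Figure D3:**
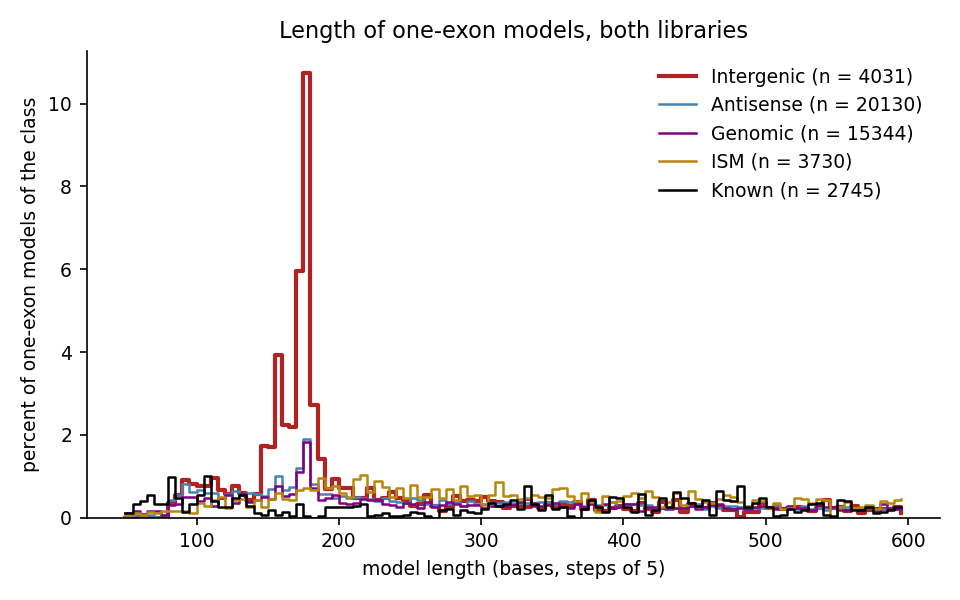
Length of one-exon models in bases (x axis, steps of 5) against the percent of that class's one-exon models (y axis), both libraries together, for 5 classes. The intergenic line peaks where 169 to 180 bases hold 17.9% (replicate 2) and 18.5% (replicate 1) of its models; the antisense and genomic lines have a lower peak at the same place.

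Ends were placed alike by both libraries, more closely at the 3′ end. Over the 503 shared loci with 1 one-exon model in each library, the 5′ ends differed by a median of 2 bases and the 3′ ends by a median of 1 base. The 5′ ends were within 10 bases in 358 loci (71.2%) and the 3′ ends in 405 (80.5%), and 235 had the identical 3′ base. Of the 385 that shared no base with a gene, 67.5% agreed at the 5′ end and 82.6% at the 3′ end. Long loci differed mainly at the start: over the 141 whose longest model had 1000 bases or more, the median difference was 514 bases at the 5′ end and 0 at the 3′ end, and 65 (46.1%) differed more than 2-fold in length.

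Splicing was uncommon. A spliced model was present in 111 shared loci (17.3%), in both libraries for 60, against 148 of 221 annotated lincRNA genes read in both libraries (67.0%) and 10710 of 11075 protein-coding genes (96.7%). The longest model of a shared locus had a median of 459 bases, against 1778 for the lincRNA genes. The share with a spliced model was 21.9% of the 424 loci with a smaller count of 1, 8.61% of the 151 with a smaller count of 2 to 4 and 7.69% of the 65 with 5 or more. Among spliced shared loci the number of exons was 2 in 73, 3 in 27, 4 in 7 and 5 in 4. Of the 60 spliced in both libraries, 45 shared at least 1 intron with identical ends and 30 shared the whole intron chain.

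The best-read spliced loci had the same introns in both libraries. The locus chr10:125107466-125112524 on the plus strand had 18 reads in replicate 2 and 12 in replicate 1, or 25.3 CPM in replicate 2 and 30.2 CPM in replicate 1, all spliced over 1 intron of 4688 bases between chr10:125107608-125112295. Its second exon was 229 bases in both libraries and its first was 123 bases in replicate 2 and 142 in replicate 1, and the nearest annotated gene, the unread lincRNA gene Gm36719, is 87664 bases away. The locus chr12:32724685-32770241 on the plus strand had 8 reads in replicate 2 and 5 in replicate 1, all spliced over an intron of 45242 bases, the longest of the 34 introns in shared chains, whose median was 825 bases. It lies in the RefSeq lncRNA gene Gm40376, whose window is printed above and which is not in GENCODE M21. The locus chr10:45956795-45957833 on the minus strand had 13 reads in replicate 2 and 3 in replicate 1 over 1 intron of 675 bases. None of these 3 passed the test between the libraries, with adjusted p from 0.701 to 1 (exact binomial test).

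Spliced loci on 4 chromosomes had nearly the same structure. The locus chr7:48124177-48132210 on the minus strand had 9 reads in replicate 2 and 5 in replicate 1, with exons of 217 and 2511 bases in replicate 2 and an intron of 5306 bases. The locus chr10:79314315-79322344 on the minus strand, 19779 bases from the vomeronasal receptor gene Vmn2r81, had 12 reads in replicate 2 and 4 in replicate 1, with exons of 221 and 2510 bases and an intron of 5299 bases. A search of all spliced intergenic models for an intron within 10 bases of either length, made after this pair was seen, found 2 more shared loci. The locus chr4:3192264-3200300 on the minus strand, 6905 bases from the vomeronasal receptor gene Vmn1r3, had 1 read in each library, and its replicate 1 model had exons of 220 and 2508 bases and an intron of 5308 bases. The locus chr13:119661835-119669869 on the plus strand had 3 reads in each library, spliced in replicate 2 alone, with exons of 223 and 2508 bases and an intron of 5304 bases. The 4 spans ran from 8030 to 8037 bases. Of the loci read in 1 library 1 had such an intron, with exons of 175 and 570 bases. The sequences of these loci were not compared, so reads that could belong to several of them are uncertain.

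The other named spliced loci had fewer reads, and some began at a gene on the other strand. The locus chr8:88519570-88521354 on the minus strand, in the RefSeq lncRNA gene Gm35162, had 4 reads in replicate 2 and 2 in replicate 1 and begins at Nkd1, an inhibitor of Wnt signalling, which had 32 reads in replicate 2 and 16 in replicate 1. The locus chr8:72548270-72551065 on the plus strand, which covers the Med26 window, had 3 reads in replicate 2 and 2 in replicate 1, with the same first exon of 1062 bases in both libraries. The locus chr13:112100851-112102165 on the plus strand, in RefSeq Gm41062, had 6 reads in replicate 2 and 1 in replicate 1. The locus chr6:86382822-86384227 on the plus strand had 5 reads in replicate 2 and 1 in replicate 1, over 3 exons in both libraries, and lies in RefSeq lncRNA Gm52865 next to Pcyox1, a prenylcysteine oxidase gene. The locus chr9:86725240-86727652 on the plus strand had 2 reads in replicate 2 and 4 in replicate 1, in 2 exons. The first bases of an intron in a shared chain could be read in RefSeq windows for 3 loci, and all 3 were GT.

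By the annotation the authors used every locus was intergenic, but by RefSeq 191 of the 640 (29.8%) lay at least 50% inside a gene. Of these, 76 were on the gene's own strand, 42 of them in lncRNA genes and 34 in protein-coding genes, while 49 were on the opposite strand and the strand of 66 was not listed. The 30 loci with the same intron chain in both libraries included 9 in a RefSeq gene on the same strand (30.0%), against 47 of the 529 one-exon loci (8.88%).

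The nearest annotated gene lay at a median of 2624 bases from the 638 shared loci on a sequence with any gene, with quartiles at 351 and 9056 bases. The largest gap was 321941 bases, and 148 loci (23.2%) were more than 10000 bases away. By strand, 208 loci (32.6%, exact 95% interval 29.0 to 36.4%) were divergent, starting on the side of a gene's start and running away from it on the opposite strand. A further 158 (24.8%) lay upstream on the same strand, 147 (23.0%, 19.8 to 26.5%) downstream on the same strand and 125 (19.6%) convergent. The 3146 loci read in 1 library had 28.7% divergent and 24.6% downstream on the same strand.

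The median gap was 1068 bases for divergent loci, 4063 for downstream, 3452 for upstream and 2770 for convergent loci. Without the loci at a gap of 0 it was 5337 for divergent, 6404 for downstream, 4132 for upstream and 3764 for convergent loci, so that divergent loci were no longer the closest. Many shared loci met a gene at a single base: 153 of the 640 (23.9%) shared exactly 1 base with an annotated gene and none shared more. Of the 153, 85 were divergent with the locus's 5′ end on the gene's boundary, 39 were downstream on the same strand, 15 convergent and 14 upstream. Both libraries placed the end on that base in 127 of the 153. Protein-coding genes made up 107 of the genes met and processed pseudogenes 27. Each locus was counted with 1 gene, on its own strand where genes tied. The Tbc1d22a locus thus counted as upstream of Gm22818, although its 5′ end also lay on an annotated boundary. The 85 can therefore understate the 5′ ends that lay on a gene of the other strand.

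Next to these loci the distances had an empty stretch. No shared locus lay 1 to 300 bases from its nearest gene, while 153 lay at 0, 15 at 301 to 500 and 63 at 501 to 1000 bases. Where the locus's 5′ end faced the gene, the smallest gap above 0 was 506 bases for downstream and 523 for divergent loci. Where its 3′ end faced the gene, it was 307 for upstream and 313 for convergent loci. Over all loci of either library 753 lay at 0 and 7 at 1 to 300 bases. A distance of 0 thus stands for a deposited end on an annotated boundary, and where within the empty stretch the reads ended was not analysed.

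**Figure D4:**
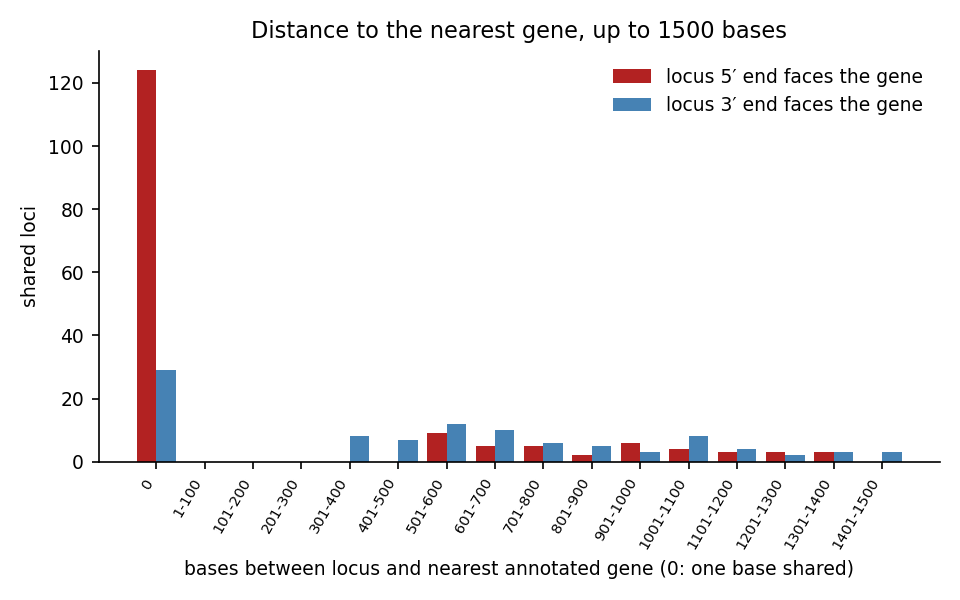
Number of shared loci (y axis) by bases to the nearest annotated gene (x axis, steps of 100 up to 1500, with 0 for a shared base), split by whether the locus's 5′ or 3′ end faces the gene. The 153 loci at 0 are followed by no locus up to 300 bases.

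The genes next to shared loci often had reads. Of 638 nearest genes (a gene near several loci counts each time), 341 (53.4%) had reads in both libraries, against 12199 of 51352 annotated genes outside X and Y (23.8%). Among protein-coding nearest genes the share was 309 of 392 (78.8%), against 53.0% of all 20897. For protein-coding genes within 1000 bases it was 80 of 89 beside divergent, 20 of 22 beside downstream, 18 of 26 beside upstream and 27 of 28 beside convergent loci. As a description, the log2 CPM of locus and nearest gene, both means over the same 2 libraries, had a Pearson correlation of -0.07 over the 341 loci. Of 72 genes of steroid synthesis, cortical transcription and chromaffin cells, 1 was nearest to a shared locus. Over all 51352 annotated genes outside X and Y, at most 638 were, so the 1 is a description alone. Of the 3807 loci of either library, 20 were nearest to a listed gene. The listed gene nearest to a shared locus was Th, the rate-limiting enzyme of catecholamine synthesis. There the locus chr7:142889731-142892752 on the minus strand had 2 reads in replicate 2 and 1 in replicate 1 and began at the last base of the gene.

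All annotated genes and intergenic loci with at least 10 reads were tested between the libraries with a two-sided exact binomial test and Benjamini-Hochberg adjustment over 9373 features. This compares 2 libraries, not conditions, and it takes reads as independent, so its p-values cover counting error alone. Of all features 211 (2.25%) passed an adjusted p of 0.05, 133 of them higher in replicate 1. Of the 94 shared loci tested 4 passed, all higher in replicate 1. Of the 94, 12 (12.8%) had an unadjusted p under 0.05, against 11.6% of all features, and the median log2 ratio of replicate 2 over replicate 1 was -0.12, against 0.03 over all features. Of the 8 loci tested that were read in 1 library, 7 passed, 4 in replicate 2 and 3 in replicate 1; a locus enters this set by having no read in the other library, so that count is a description.

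The lowest adjusted p among shared loci was at chr13:55184762-55189155 on the plus strand, 16002 bases downstream of Fgfr4, a fibroblast growth factor receptor gene. It had 65 reads in replicate 2 and 139 in replicate 1, or 91.3 CPM in replicate 2 and 350 CPM in replicate 1, a log2 ratio of -1.93 (adjusted p = 9.2e-18, exact binomial test). Its longest models were nearly equal, at 4384 bases in replicate 2 and 4237 in replicate 1. Fgfr4 itself had 25 reads in replicate 2 and 22 in replicate 1. Replicate 2 held 1.79 times the annotated reads of replicate 1, so the CPM of Fgfr4 was also higher in replicate 1. The liver markers were higher in replicate 1 as well, as given above, and their part in the difference at the locus was not tested. The locus chr2:53694364-53694855 on the minus strand, near the pseudogene Gm13502 and in RefSeq Gm38481, had 48 reads in replicate 2 and 60 in replicate 1, and its log2 ratio was -1.16 (adjusted p = 0.00272, exact binomial test). Gm13502 itself, 1265 bases away on the same strand, went the other way, with 18 reads in replicate 2 and 2 in replicate 1.

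The other 9 loci past the threshold shared at least 1 base with reads of another class on the same strand. At Gm14303, Gm10182, Gm5526 and Gm11223 no such read covered 50% of the locus, and at Gm6969 1 did. The locus chr2:172509432-172509521 on the minus strand had no read in replicate 2 and 176 in replicate 1, at least 105-fold higher in replicate 1 when 3 reads are set for the library at 0. It shares 1 base with the end of Gm14303, whose annotated transcripts had 397 reads in replicate 2 and 10 in replicate 1. The sums were 397 reads (558 CPM) in replicate 2 and 186 reads (468 CPM) in replicate 1, a ratio of 1.19 with an adjusted p of 0.441 (exact binomial test). The locus chr12:24638003-24638669 at Gm6969 had 0 reads in replicate 2 and 21 in replicate 1, with 41 reads of other classes in replicate 2 and 8 in replicate 1. The locus chr5:32135277-32135801, which begins at Fosl2, a gene of the AP-1 transcription factor family, had 0 reads in replicate 2 and 14 in replicate 1, with 50 antisense and genomic reads in replicate 2.

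In the other direction, the locus chr9:22320306-22321105 at Gm10182 had 25 reads in replicate 2 and 0 in replicate 1, where the gene had 6. The locus chr1:45857188-45857332 at Gm5526 had 19 reads in replicate 2 and 0 in replicate 1, where the gene had 1 read in replicate 2 and 4 in replicate 1. The locus chr15:86194795-86195324 had 16 reads in replicate 2 and 0 in replicate 1, and replicate 1 had 16 reads of the antisense class over at least 50% of it. The locus chr16:30182657-30185912 had 18 reads in replicate 2 and 0 in replicate 1, with 3 antisense reads in replicate 1. Among shared loci, chr4:69925201-69925630 at Gm11223 had 2 reads in replicate 2 and 11 in replicate 1, with 9 reads on the gene in replicate 2, and chr10:45064855-45067203, which begins at the prolyl endopeptidase gene Prep, had 3 reads in replicate 2 and 15 in replicate 1, with 29 genomic reads in replicate 2 and 1 in replicate 1.

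With the same-strand reads of every class added, 2 of the 11 loci passed the threshold, those near Fgfr4 and Gm13502. Only reads that shared a base with a locus were added, which gave 1 read near Fgfr4, in replicate 1, and 0 near Gm13502. The other 9 had adjusted p from 0.281 to 1 (exact binomial test over all features). Their ratios of replicate 2 over replicate 1 then ran from 0.558 to 2.95, on as few as 3 reads in a library. Not passing at such counts does not show equal levels. Among all 3167 loci read in 1 library, 288 (9.09%) shared a base with a model of another class on the same strand in the other library. That share was 64.7% of the 34 with at least 5 reads and 7 of the 8 with at least 10.

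**Figure D5:**
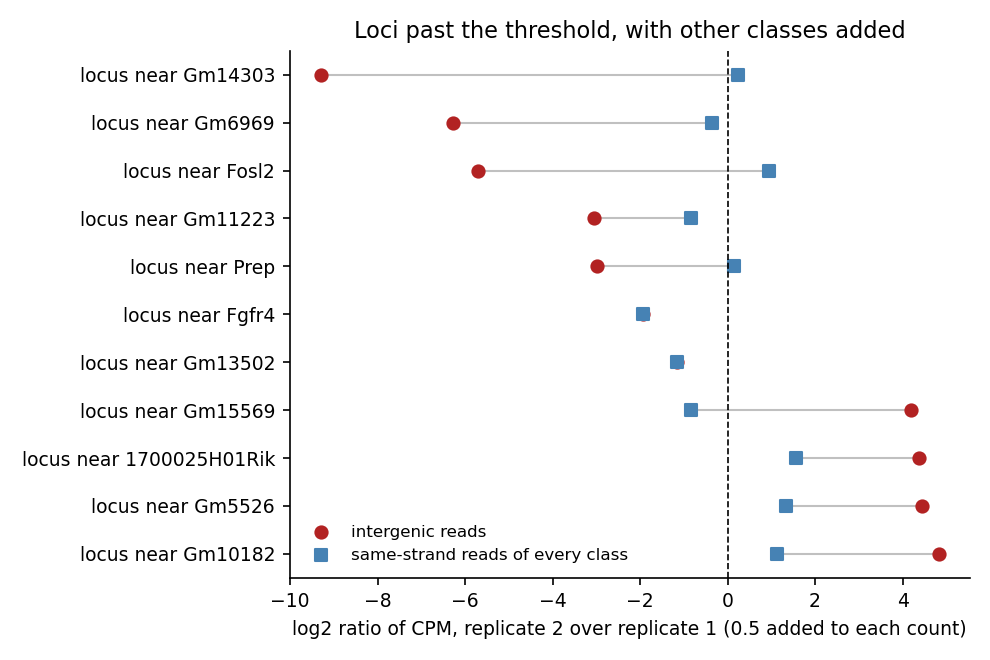
Log2 ratio of replicate 2 over replicate 1 (x axis, 0.5 added to each count) for the 11 loci past the threshold, named by their nearest gene, from intergenic reads alone (circles) and with same-strand reads of every class added (squares). With the added reads the Gm14303 locus moves to 0.25 and the Fgfr4 locus stays at -1.94.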

How the data were processed

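Per the file headers, the deposited tables give the count of whole reads for each transcript model with at least 1 read, made by the authors with TALON for each library separately; the labels name build mm10, and annotated identifiers matched GENCODE M21. Aligner and program versions: not given in the sources used here. Reads on added control RNAs were left out (1.88% of replicate 2 and 2.08% of replicate 1). Models of class intergenic outside X and Y were merged by span, at least 1 shared base on the same strand, and set against GENCODE M21 genes (nearest on either strand) and RefSeq genes of GRCm38.p6, which is the same assembly. Ties for the nearest gene went to a gene on the same strand, then to the smaller start. CPM used reads on annotated genes as total, and log2 ratios had 0.5 added to each count. All features with at least 10 reads were tested with an exact binomial test and Benjamini-Hochberg adjustment at 0.05. The tools were Python 3.11.15, pandas 2.3.3, SciPy 1.17.1 and edgeR 4.0.16 (TMM sizes); merging and test were tested on simulated data. Named loci were the 15 shared loci with the highest smaller count, the 10 best-read loci spliced in both libraries, up to 5 largest ratios in each direction among loci past the threshold with at least 20 reads and, among shared loci with at least 3 reads in each library, the 5 longest, the 5 with most exons and up to 10 nearest to a listed adrenal gene; other loci past the threshold or at a listed adrenal gene, the Akr1d1 locus and the loci with a like intron, were named after their values were seen. Loci and gene lists were chosen with earlier results of these data known.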

Additional observations from a re-analysis of the deposited data

Results flagged for a closer look

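Intergenic signal also lay outside the loci described. TALON genes of the intergenic class held models of other classes with 353 reads in replicate 2 (167 models) and 157 in replicate 1 (84 models). Intergenic models on chromosomes X and Y held 197 reads in replicate 2 (113 models) and 121 in replicate 1 (69 models). All 4 sums are above the 3 reads that a count of 0 allows, and none entered a comparison. Each is a sum over models that hold at least 1 read by definition, so lying above that limit was fixed in advance.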

How the results depend on the processing

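The count of 640 shared loci became 640 with an overlap of 50% of the shorter span, 647 with models within 1000 bases merged and 635 by exon overlap, but 216 with at least 2 reads in each library and 65 with at least 5. The 17.3% with a spliced model became 8.33% and 7.69% at those minimums, and 10.3 to 10.5% over all loci of 1 library when the other was left out. The median distance of 2624 bases became 4362 with protein-coding and lincRNA genes alone, 6923 with genes read in both libraries, 2855 to 2912 with 1 library left out, and 1820 and 3070 bases at the read minimums. The 23.0% downstream on the same strand became 19.3%, 18.5% and 23.6 to 24.6% under the first 3 of these settings. Added after seeing the data, leaving out loci that share a base with a gene gave 17.0% spliced, 4956 bases and 22.3% downstream, and leaving out the one-exon loci of 169 to 180 bases gave 20.6% and 1903 bases. The 11 loci that differed between the libraries, 4 of them shared, became 0 and 0 with spliced models alone and 2 and 2 with same-strand reads of every class added, and otherwise stayed between 9 and 11. Spliced models held 0.0543% of mouse reads in replicate 2 and 0.0563% in replicate 1, and shared loci 0.410% and 0.512%. Where a value moved, the cause was not tested beyond the smaller set that each setting leaves.

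No paired analysis was possible because the labels give 1 group. A planned filter on A-rich sequence after the 3′ end was not run, since no genome was used here. Of 7 shared loci with the next 20 bases in a RefSeq window, 0 had 12 or more A (range 2 to 10). In the first 20 bases of all 31396 windows outside X and Y, 419 (1.3%) had 12 or more. The 7 loci are thus too few to stand in for the filter. The 2 libraries give no measure of spread beyond their own difference, and the limit for a locus with no read is 4.21 CPM in replicate 2 and 7.55 CPM in replicate 1. The strand of reads on one-exon models rests on the authors' alignment and was not checked.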
